A study of Homo sapiens with 4 samples.

Results

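Fra-1 peaks seen only against IgG were the peaks that the authors listed for the Fra-1 antibody with normal rabbit IgG as the control and did not list, at any overlapping base, with input DNA as the control. They were chosen by calls, that is, by whether a peak passed the authors' threshold over each control: on chromosomes 1 to 22 and X, 374 of the 16089 Fra-1 peaks over IgG (2.32%, 95% exact binomial interval 2.10% to 2.57%) overlapped no Fra-1 peak over input by 1 bp or more. The other 15715 are called shared peaks here. The study mapped Fra-1 and DDX5, an RNA helicase and transcriptional coactivator, by chromatin immunoprecipitation and sequencing (ChIP-seq) in untreated BT549 cells, an established human breast cancer line without oestrogen receptor alpha. All groups were the same untreated line. There was 1 library each of Fra-1 ChIP (antibody R-20, sc-605), DDX5 ChIP (ab21696), control ChIP with normal rabbit IgG (sc-2027) and input DNA. With no replicates, no difference was tested, and the intervals below cover counting error only. Across the 4 libraries the authors deposited 4 peak lists holding 57601 peaks, and the number of reads behind each library is unknown here.

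Fra-1 is the product of FOSL1 and a Fos-family subunit of AP-1. It binds DNA as a dimer with a Jun protein, at a short palindrome of the TGACTCA kind and often at enhancers. In breast cancer cells it is known for its part in the mesenchymal and invasive state. A ChIP-seq peak is a stretch where the antibody library has more fragments than its control, so the control sets which weak sites enter a list. Input DNA is sonicated chromatin before immunoprecipitation and follows the copy number and recovery of each region. IgG is a mock immunoprecipitation, whose library follows what sticks without a specific antibody. Coordinates below are those of the deposited lists (hg19), and peaks go by their coordinates, since neither their genes nor their motifs were analysed here.

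The IgG-only peaks were weak and narrow members of the Fra-1 list. Fra-1 depth at the summit, the number of Fra-1 fragments stacked there, had a median of 23 (interquartile range 21 to 26, range 14 to 38) in the IgG-only peaks, against 50 (34 to 80, range 14 to 323) in the shared peaks. The authors' fold enrichment over IgG had a median of 4.89 (4.26 to 5.57) in IgG-only peaks and 6.96 (5.03 to 10.0) in shared peaks. The groups overlapped in both measures, and the highest IgG-only fold, 8.94, was well below the highest shared fold, 42.7. Only 3 IgG-only peaks reached 8-fold (0.802%, 0.166% to 2.33%), against 38.8% of all 16089 Fra-1 peaks over IgG. The 5036 shared peaks within the depth and IgG range of the IgG-only peaks came closer. Of these, 6.12% (5.47% to 6.81%) reached 8-fold, and their highest fold was 9.42. No test is given on these values, because the rule used calls made from the same Fra-1 library.

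The IgG level under the IgG-only peaks was low. On the scale of the Fra-1 library it had a median of 3.39 fragments (3.02 to 4.52, highest 9.05) at the IgG-only peaks, against 6.11 (4.52 to 9.05, highest 144.7) at the shared peaks. In 112 of the 374 IgG-only peaks (29.9%, 25.3% to 34.9%) it lay at 3.02, the lowest IgG level of any Fra-1 peak, which is the caller's genome-wide background. It did so in 8.59% (8.16% to 9.04%) of the shared peaks. Among the shared peaks within the depth and IgG range of the IgG-only peaks, it did so in 904 of 5036 (17.95%, 16.90% to 19.04%). The IgG level entered the calls over IgG, so these shares are not independent of the rule. The lowest listed depth over IgG was 14 fragments in the IgG-only peaks and in the shared peaks.

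**Figure D1:**
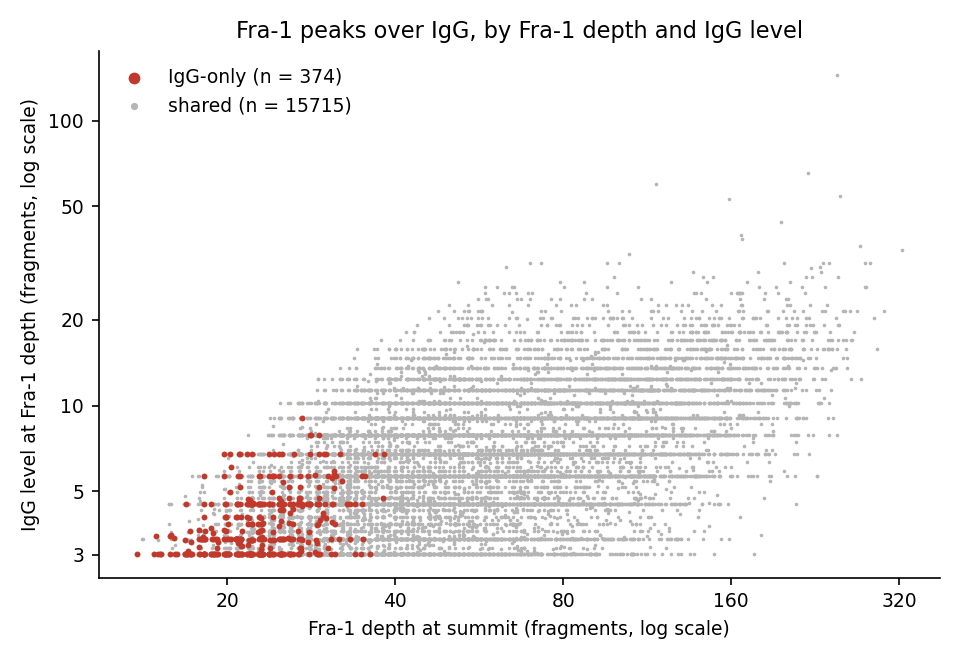
Each point is 1 Fra-1 peak over IgG, placed by its Fra-1 depth (x, fragments, log scale, jittered by under 1 fragment) and its IgG level (y, fragments at the depth of the Fra-1 library, log scale), for the 374 IgG-only peaks in red and the 15715 shared peaks in grey. The red points fill the corner of low depth and low IgG level, up to a depth of 38 and an IgG level of 9.05, where grey points also lie.

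The strongest IgG-only peaks lay above the upper quartile of the group in depth and fold, 26 fragments and 5.57-fold. The IgG-only peak with the highest −log10 q, 19.6, lay at chr3:110132656-110132909, with 36 Fra-1 fragments over an IgG level of 3.02, 8.94-fold. Its edge was 83 bp from a Fra-1 peak over input that had 43 fragments over an input level of 6.97, 5.52-fold. The next, at chr10:36891385-36891643, had 35 fragments over an IgG level of 3.02 and was 8.70-fold. The peak at chr1:172368590-172368830 had 34 fragments over an IgG level of 3.02 and was 8.46-fold. These were the 3 IgG-only peaks at or above 8-fold, and in each the IgG level sat at the genome background.

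The other 7 of the leading 10, which with those 3 hold the 5 highest folds of all IgG-only peaks, ran from 6.65-fold to 7.99-fold. Of these, chr6:129994065-129994301 (35 fragments) and chr6:84578453-84578699 (33 fragments) both had an IgG level of 3.39. The peak at chr1:66696883-66697109 had the highest depth of the leading 10, 38 fragments, over an IgG level of 4.75, and its fold was 6.65. Peaks at chr18:65399137-65399363 and chr14:68466778-68467004 had the same values, 31 fragments over an IgG level of 3.02, 7.74-fold. The peaks at chr4:126657266-126657520 (32 fragments, 7.32-fold) and chr8:69938124-69938335 (31 fragments, 7.10-fold) closed the leading 10, both with an IgG level of 3.39. None of these 10 overlapped a DDX5 peak, and the nearest DDX5 peak over input to any of them was 40215 bp away, from the peak at 172368590 on chromosome 1.

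The share of the Fra-1 list that was IgG-only fell with depth and with width. Of the peaks of 14 to 18 fragments, 48 of 178 (27.0%, 20.6% to 34.1%) were IgG-only. The share was 17.9% at 19 to 22 fragments, 9.64% at 23 to 26, 4.90% at 27 to 30 and 1.24% at 31 to 38, and it was 0 of 10482 above that, where the interval reaches 0.0352%. Width behaved alike: 98 of the 434 peaks of exactly 200 bp (22.6%, 18.7% to 26.8%) were IgG-only, against 12.0% of those of 201 to 210 bp, 4.82% of those of 221 to 240 bp and 0.150% of those over 300 bp. No peak in any of the 4 lists was narrower than 200 bp, and 26.2% of the IgG-only peaks had exactly this width, against 2.14% of shared peaks.

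**Figure D2:**
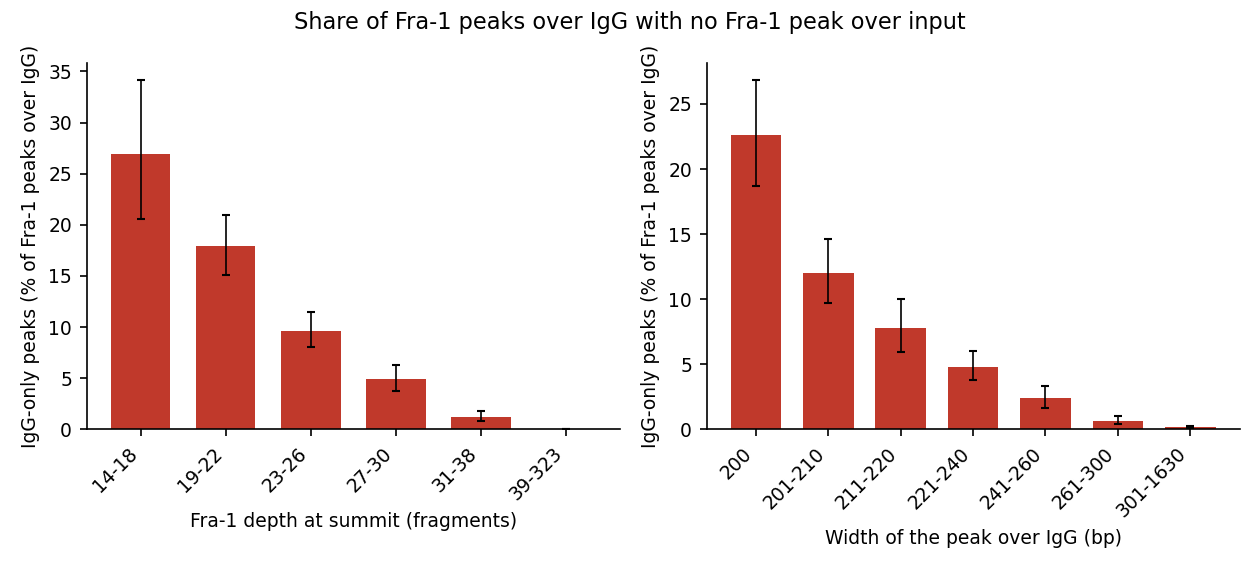
Bars give the percentage of Fra-1 peaks over IgG that were IgG-only, by Fra-1 depth at the summit (left, fragments) and by width (right, bp), and whiskers give the 95% exact binomial intervals. The share falls from 27.0% at 14 to 18 fragments to 0 above 38, and from 22.6% at 200 bp to 0.150% above 300 bp.

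Since depth differed between the groups, the IgG-only peaks were also set beside the 5036 shared peaks that lay in their range, with a depth of up to 38 fragments and an IgG level of up to 9.05, called weak shared peaks here. This range was taken from the IgG-only peaks themselves. The 2 groups still differed in depth, with medians of 23 fragments in IgG-only and 29 in weak shared peaks. Their folds over IgG were closer, with medians of 4.89 (interval of the median 4.80 to 4.98) and 5.15 (5.11 to 5.18), while the IgG level had medians of 3.39 in IgG-only peaks and 4.52 in weak shared peaks. IgG-only peaks had a median width of 211 bp and weak shared peaks one of 244 bp, and 64.4% of IgG-only but 27.3% of weak shared peaks were 220 bp wide or less. Over input, the weak shared peaks had a median fold of 5.75, a median input level of 3.87 and a median width of 284 bp. Width and depth moved together with the missing call, so the share was also taken within depths. Among peaks of 14 to 18 fragments in this range, 33.0% (23.3% to 43.8%) of those up to 220 bp wide were IgG-only, against 21.1% (13.2% to 31.0%) of wider ones, with overlapping intervals. At 19 to 22 fragments the shares were 23.0% (18.8% to 27.7%) at up to 220 bp and 12.0% (8.65% to 16.1%) in wider peaks. Among peaks of 23 to 26 fragments in this range, 16.3% (13.3% to 19.7%) of those up to 220 bp wide were IgG-only, against 4.27% (2.85% to 6.11%) of wider ones. At 27 to 38 fragments the shares were 6.50% (4.70% to 8.71%) at up to 220 bp and 1.76% (1.30% to 2.32%) in wider peaks. This last class did not hold depth fixed. Over the whole Fra-1 list the share fell from 4.90% at 27 to 30 fragments to 1.24% at 31 to 38.

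Input was higher around the IgG-only peaks than around weak shared peaks. The files give the input level only at peaks listed over input, so it was read at the Fra-1 peaks over input that lay within 50 kb without overlapping the peak itself, which 307 of the 374 IgG-only peaks had. This nearby input level had a median of 5.03 fragments (interval of the median 4.84 to 5.32) around the IgG-only peaks. Around the 4003 weak shared peaks with such a neighbour it was 4.07 (4.07 to 4.16), and around all 13475 shared peaks with one it was 4.65 (4.65 to 4.69). Read at DDX5 peaks over input instead, on the scale of the DDX5 library, the medians were 4.29 (3.95 to 4.46, 92 peaks) for IgG-only and 3.52 (3.43 to 3.60, 1349 peaks) for weak shared peaks. Both readings use the same input library as the list that the IgG-only peaks are missing from, so they are not independent of the rule.

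The relation held in each depth class. At 14 to 18 fragments, 44.4% (30.9% to 58.6%) of the peaks with a nearby input level above its median of 4.16 were IgG-only, against 16.9% (9.54% to 26.7%) of those up to the median. At 19 to 22 fragments the shares were 31.1% (24.9% to 37.9%) above the median and 10.2% (7.06% to 14.2%) up to it. At 23 to 26 fragments they were 16.3% (13.0% to 20.1%) above and 4.55% (2.87% to 6.80%) up to it. At 27 to 38 fragments they were 4.57% (3.55% to 5.78%) above and 1.08% (0.590% to 1.80%) up to it. At a given depth a higher input level makes a call over input harder, so these shares are not independent of the rule. Their intervals treat neighbouring peaks as independent, and no difference was tested.

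**Figure D3:**
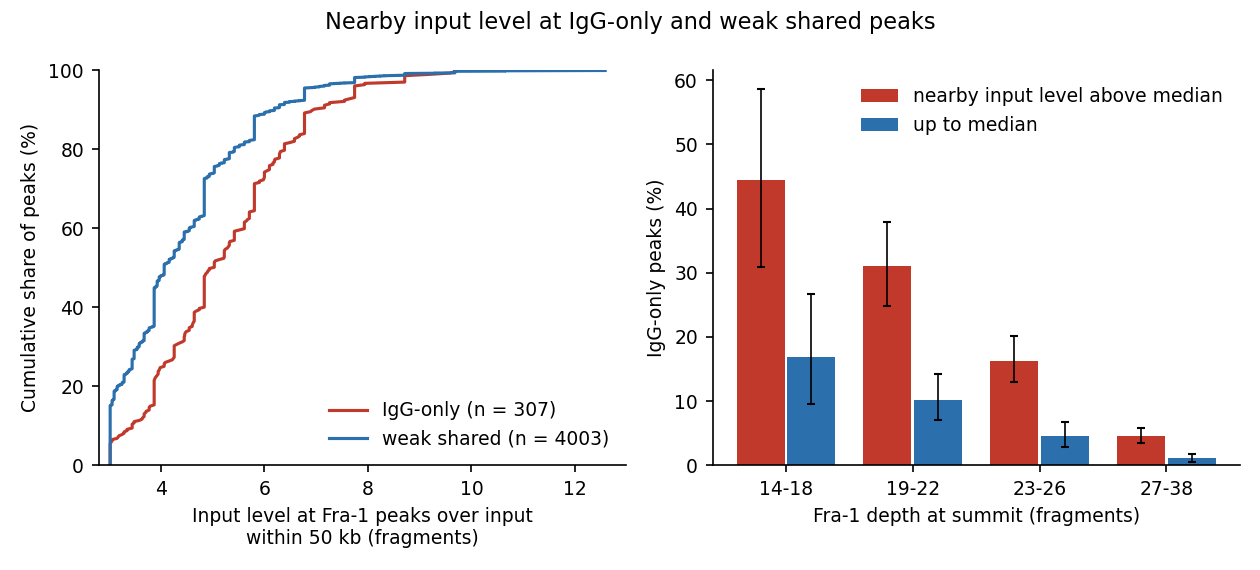
Left, the cumulative percentage of IgG-only peaks (red, 307) and weak shared peaks (blue, 4003) against the median input level, in fragments, at Fra-1 peaks over input within 50 kb; the red curve lies to the right, with medians of 5.03 and 4.07. Right, the percentage of peaks that were IgG-only by Fra-1 depth (fragments), for peaks with a nearby input level above (red) and up to (blue) its median, with 95% exact binomial whiskers: the red bar is the taller in all 4 depth classes.

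The IgG level at most IgG-only peaks lay below the input level read near them. The IgG level at an IgG-only peak, on the scale of the Fra-1 library, had a median of 0.777 times the nearby input level (interval of the median 0.742 to 0.793). In weak shared peaks it had a median of 1.05 times (1.03 to 1.07) and in all shared peaks 1.39 times (1.37 to 1.40). The IgG level lay below the nearby input level at 241 of 307 IgG-only peaks (78.5%, 73.5% to 83.0%) and at 41.2% (39.7% to 42.7%) of weak shared peaks. The IgG level also entered the calls that chose these peaks. A call over IgG without one over input favours a low ratio, so these ratios are a description.

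The nearby input level can be set beside a computed limit, the input level at which a peak would have the lowest −log10 p listed over input. The lowest −log10 p in the Fra-1 list over input was 3.53, and for a depth of 23 fragments that value is reached at an input level of 10.6. The 1049 Fra-1 peaks over input with 23 fragments had input levels of up to 10.6, with a median of 4.38. Set for each depth in the same way, this limit had a median of 10.6 over the IgG-only peaks, and it was above the nearby input level at 300 of 307 of them (97.7%, 95.4% to 99.1%). Listed input levels did not come close to the limit at every depth. At 38 fragments the limit was 21.1 and the highest listed input level was 14.4. The limit was a median of 2.20 times the nearby input level. These levels were read at other peaks, up to 50 kb away, which were themselves listed over input. The same threshold capped the input level of those peaks at their own depth. A nearby level below the limit was thus favoured in advance, and the share says little of the IgG-only peaks. The input level at the IgG-only peaks themselves was not analysed here, and its part in the missing calls was not tested.

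Of the IgG-only peaks, 106 lay within 1 kb of a Fra-1 peak over input and 268 lay at 1 kb or more. The gap to the nearest Fra-1 peak over input had a median of 7374 bp and ran from 68 bp to 360137 bp. It was up to 100 bp for 5 IgG-only peaks, 100 to 500 bp for 62 and 500 to 1000 bp for 39, so 106 lay within 1 kb. The neighbours over input of these 106 had a median of 47.5 fragments and 7.48-fold, against 30 fragments and 5.38-fold in all 30405 Fra-1 peaks over input on these chromosomes, and 96 of the 106 (90.6%, 83.3% to 95.4%) had a Fra-1 peak over IgG of their own. That share was 50.6% over all 30405, and 86.7% (86.0% to 87.4%) over the 8142 within the interquartile depth range of the neighbours. The 106 near peaks had a median fold over IgG of 4.85 and a median depth of 23.5 fragments. The 268 farther ones had close medians, 4.89-fold and 23 fragments. Another Fra-1 peak over IgG lay within 1 kb of 28.1% (23.6% to 32.9%) of IgG-only, 20.8% (19.7% to 21.9%) of weak shared and 24.2% (23.5% to 24.9%) of all shared peaks. Within 10 kb the shares were, in the same order, 52.7% (47.5% to 57.8%), 45.3% (43.9% to 46.7%) and 52.7% (51.9% to 53.5%). The median gaps to another such peak were 8251 bp, 14070 bp and 8240 bp.

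The 5 nearest IgG-only peaks lay 68 to 98 bp from a Fra-1 peak over input. The one at chr4:138881603-138881831, with 26 fragments and 6.53-fold over IgG, ended 68 bp from a Fra-1 peak over input of 68 fragments. At chr15:78286791-78286990 a peak of 18 fragments and 4.23-fold lay 70 bp from one of 40 fragments. The leading peak on chromosome 3, at 83 bp, was the third. At chr3:16108152-16108354 a peak of 25 fragments (4.55-fold) lay 86 bp from one of 91 fragments, and at chr9:28810443-28810647 a peak of 22 fragments (5.57-fold) lay 98 bp from one of 40 fragments. In all 5 the neighbour over input was deeper than the IgG-only peak. All IgG-only peaks had a median of 23 fragments, against 30 in all Fra-1 peaks over input. The depth of neighbours was not compared with that around weak shared peaks.

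Just across the rule lay the 5 shared peaks with the fewest bases in common with a Fra-1 peak over input, 81 to 148 bp, so no peak was decided by a few bases. The 5 nearest IgG-only peaks had 4.23-fold to 8.94-fold over IgG and a median depth of 25 fragments, against 2.92-fold to 4.45-fold and a median of 20 in these 5 shared peaks. At chr6:143144544-143144793, with 81 bp in common, there were 22 fragments over an IgG level of 6.78 and an input level of 6.78. At chr3:122203890-122204114, with 95 bp in common, there were 19 fragments over an IgG level of 3.39 and an input level of 6.78, and the fold was 4.45 over IgG and 2.57 over input.

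At the other end, 29 IgG-only peaks lay over 100 kb from any Fra-1 peak over input. The farthest was at chr18:22869297-22869505, with 20 fragments over an IgG level of 3.02 (5.09-fold), 360137 bp from the nearest. The next was at chr1:177475092-177475291, with 23 fragments (5.81-fold), 296295 bp away. At chr10:76262776-76263015 there were 37 fragments over an IgG level of 6.79 (4.82-fold), 278518 bp away. The peaks at chr8:34980943-34981142, with 16 fragments and 3.75-fold, and chr8:72999428-72999642, with 19 fragments and 4.85-fold, were 252038 bp and 242752 bp away. Of these 5, the one on chromosome 10 was the deepest and had the highest IgG level.

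Joined at up to 100 kb, the IgG-only peaks formed 328 single peaks and 23 pairs, and no group of 3. The closest pair lay within 0.569 kb at chr17:29575632-29576200, and others lay within 0.746 kb at chr6:48509538-48510283 and 0.827 kb at chr7:80913961-80914787.

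No IgG-only peak overlapped a DDX5 peak. Of the 374, 0 overlapped a DDX5 peak over input (exact interval up to 0.981%), against 8.70% of all 16089 Fra-1 peaks over IgG. The share was 1.79% (1.44% to 2.19%) in the weak shared peaks and 8.91% (8.47% to 9.36%) in all shared peaks. Weak shared peaks were still deeper than IgG-only peaks, with medians of 29 and 23 fragments, and DDX5 overlap was not compared within depths. Within 1 kb there was a DDX5 peak over input at 6 IgG-only peaks (1.60%, 0.591% to 3.46%), against 4.53% (3.97% to 5.14%) of weak shared peaks, and within 10 kb at 6.95% (4.59% to 10.0%) of IgG-only against 11.6% (10.7% to 12.5%) of weak shared peaks. Farther out the groups drew together, and the median gap to a DDX5 peak over input was 176946 bp for IgG-only peaks (interval of the median 149086 to 218398) and 157460 bp for weak shared peaks (147992 to 167393). The DDX5 list over input and the list that the IgG-only peaks are missing from share the input library, so the input level at a site enters both calls. In the DDX5 list over IgG, which does not use input, 0 of 374 IgG-only, 2 of 5036 weak shared and 8 of 15715 shared peaks had an overlap, too few to compare.

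The 6 IgG-only peaks within 1 kb of a DDX5 peak over input were all within 1 kb of a Fra-1 peak over input too. The nearest, at chr2:226983880-226984081, had 24 fragments and 6.05-fold over IgG and lay 244 bp from a DDX5 peak of 4.89-fold over input. At chr12:69202579-69202816 an IgG-only peak of 26 fragments (5.45-fold) lay 378 bp from a DDX5 peak that was also 4.89-fold. The other 4 were at chr1:108741900-108742167, chr3:10017885-10018100, chr8:91870432-91870635 and chr3:18141688-18141902, at gaps of 452 to 894 bp from DDX5 peaks of 3.94-fold to 4.23-fold.

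**Figure D4:**
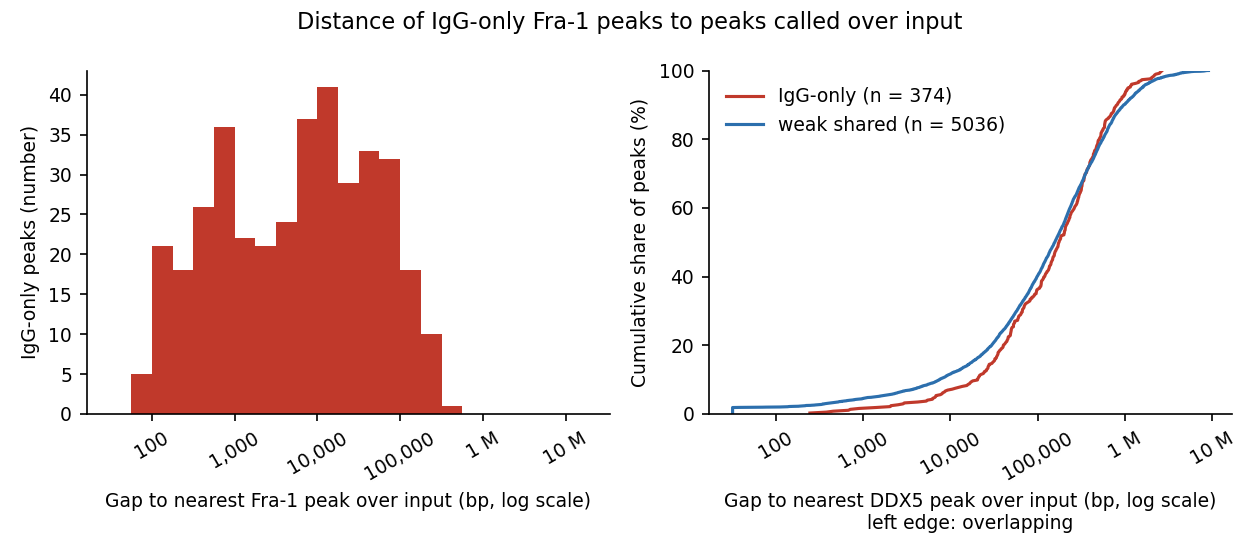
Left, the number of IgG-only peaks by the gap to the nearest Fra-1 peak over input (bp, log scale), which runs from 68 bp to 360137 bp. Right, the cumulative percentage of IgG-only (red, 374) and weak shared (blue, 5036) peaks by the gap to the nearest DDX5 peak over input (bp, log scale, overlapping peaks at the left edge): the red curve starts at 244 bp with no overlap and the blue one at 1.79%, and their medians are 176946 bp and 157460 bp.

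The IgG-only peaks were unevenly spread over the chromosomes, and among weak peaks they were more common where input was high. Chromosomes 1 and 3 held the most, 52 and 48, which were 3.18% (2.39% to 4.15%) and 3.81% (2.82% to 5.02%) of their Fra-1 peaks over IgG. On chromosomes 8 and 20, which had the highest input levels, the shares of all Fra-1 peaks over IgG were 2.81% (1.85% to 4.10%) and 2.26% (1.09% to 4.12%), close to the 2.32% of the whole list. Chromosome 2 held 14 (1.17%, 0.643% to 1.96%), chromosome 11 held 4 (0.703%, 0.192% to 1.79%) and chromosome 22 held 1 (0.510%). The order was different within the range of depth and IgG level of the IgG-only peaks, which was set from those peaks. There the share was highest on chromosome 8, where 17.8% (12.0% to 25.0%) of 146 peaks were IgG-only and Fra-1 peaks over input had a median input level of 6.78, the highest of the 23 chromosomes. It was 14.1% (6.97% to 24.4%) on chromosome 20, where the median input level was 6.0, 13.1% (9.80% to 17.0%) on chromosome 3 (4.84), 13.0% (8.79% to 18.2%) on chromosome 9 (5.42) and 11.7% (8.83% to 15.0%) on chromosome 1 (5.03). The lowest shares were 1.30% (0.0329% to 7.02%) on chromosome 22 (3.68), 1.78% (0.486% to 4.49%) on chromosome 11 (3.87) and 2.08% (0.253% to 7.32%) on chromosome 21 (3.29). On chromosome 2, which had the lowest median input level, 3.10, the share was 2.61% (1.43% to 4.34%). The range held 146 of the 924 Fra-1 peaks over IgG on chromosome 8 and 537 of the 1193 on chromosome 2. The shares in range thus rest on different parts of each chromosome's list. The input levels come from the same list over input that the IgG-only peaks are missing from. Their relation to the shares, here and by groups of chromosomes, is therefore not independent of the rule.

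Taken by input level, the 8 chromosomes whose median was at or above that of the whole Fra-1 list over input, 4.45, were 1, 3, 5, 6, 8, 9, 10 and 20. On these, 241 of 2241 peaks in range were IgG-only (10.8%, 9.50% to 12.1%), against 133 of 3169 (4.20%, 3.53% to 4.95%) on the other 15. Over all Fra-1 peaks over IgG, the shares were 2.90% of 8301 on the 8 and 1.71% of 7788 on the 15, a smaller difference. By chromosome, in range, the shares ran from 7.67% to 17.8% on the 8 and from 1.30% to 8.81% on the 15. The groups overlapped through chromosome 14 alone, with 8.81% at a median input level of 4.07. Chromosome 17 was low for its input level, with 2.78% (0.908% to 6.36%) at 4.36. The copy number of these chromosomes in the cells was not analysed here.

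**Figure D5:**
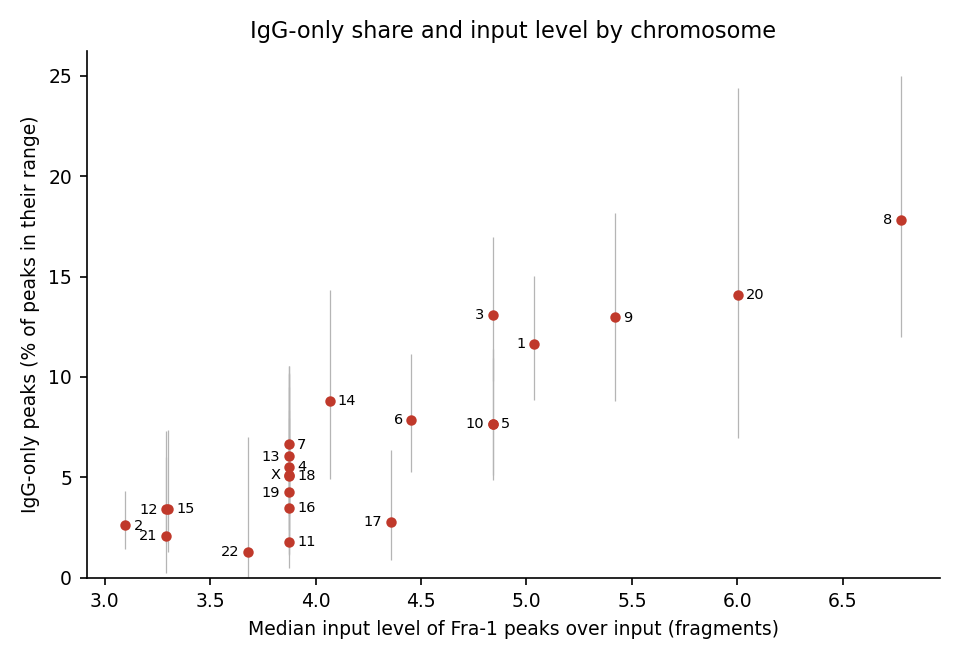
Each point is 1 chromosome (labelled, 1 to 22 and X), placed by the median input level at its Fra-1 peaks over input (x, fragments) and by the percentage of Fra-1 peaks over IgG, within the depth and IgG range of the IgG-only peaks, that were IgG-only (y), with 95% exact binomial whiskers. The share is 2.61% on chromosome 2, at the lowest input level of 3.10, and 17.8% on chromosome 8, at the highest of 6.78. Both axes rest on the Fra-1 list over input, so they are not independent.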

How the data were processed

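Per the submitters' processing notes, CASAVA 1.8, Bowtie 0.12.9, HOMER and the build hg19 were used, with no step named for each. The peak caller is not given in the sources used here, and the columns are those of a MACS2 table. Every list sets a single ChIP library against a single control library. The deposited signal of a peak is a pileup at its summit, and its fold enrichment is a ratio, per the file headers. The authors' table also has 2 columns of −log10 values with damaged headers. The first equals a Poisson −log10 p-value of the pileup given the control level (median difference 6.22e-06), and the second, which lies below the first, was read as the −log10 q-value.

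Fra-1 pileups over IgG were multiples of 0.884 (100% within 0.02) and were divided by it to give whole fragments. The control level was computed back from pileup and fold, each with the 1 fragment that the caller adds to both sides, was rounded to 0.001, and cannot fall below the assumed background of 3.02 at the Fra-1 depth, so lower levels are not seen. IgG levels were divided by 0.884. Overlaps, exact binomial (Clopper-Pearson) intervals of shares, order-statistic intervals of medians and the input limit (the Poisson level that gives the lowest −log10 p listed over input) were computed with scipy 1.17.1, pandas 2.3.3 and numpy 2.4.6 under Python 3.11.15, and plots were drawn with matplotlib 3.10.9. The overlap code was tested on simulated data. Intervals treat peaks as independent, which neighbours are not.

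Named peaks were the 10 IgG-only peaks with the highest −log10 q, the 5 with the highest fold, the 5 nearest to and the 5 farthest from a Fra-1 peak over input, and members that gather. The 6 peaks near DDX5 and the closest pairs were added after their values were seen. The peak set, the measures and the comparisons were chosen with earlier results of these data known. Alternatives were other overlap rules, stricter thresholds, all sequences in the files, and other windows and sources for nearby input. Genes, motifs and sequences at the peaks were not analysed here, since no hg19 genome or annotation was used.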

Additional observations from a re-analysis of the deposited data

How the results depend on the processing

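The number of IgG-only peaks, 374, was 376 when an overlap had to cover at least 50% of either peak, 379 when centres up to 500 bp apart counted, and 374 with all sequences in the files. It was 1827 when an overlap needed centres within 100 bp, a stricter rule that adds members by construction, 3 among 8-fold peaks and 0 among peaks at or above the median −log10 q of the list. The share with a DDX5 peak stayed at 0 with centres within 500 bp. It was also 0 in members at or above their median −log10 q and in members with no Fra-1 peak over input within 1 kb. These last 2 are subsets of the 374 members, of which 0 had an overlap, so their value was fixed in advance. The median fold, 4.89, did not move under its 2 alternatives. The median nearby input level, 5.03, became 4.84 in a window of 250 kb (3.93 for weak shared peaks), 4.29 at DDX5 peaks over input (3.52) and 4.26 as the lowest level in the window (3.48), so IgG-only peaks were the higher each time. The wider window stayed within the interval of the reported median, the DDX5 value is on the scale of another library, and the lowest level is lower by construction. No paired analysis was possible because there was 1 library per antibody. Control levels are censored at the background and absolute depth is unknown, which limits what can be said of the weakest sites.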
